A study of Mus musculus with 6 samples.

Results

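Protein phosphatases were followed in 6 array profiles of mouse hippocampus. The series is titled for mice overexpressing HuD, a neuronal protein that binds and stabilises mRNAs and is the product of Elavl4. The members were all genes whose symbol marks them as a subunit or partner of the serine/threonine phosphatases (Ppp followed by a number), a metal-dependent phosphatase (Ppm1), a non-receptor tyrosine phosphatase (Ptpn) or a receptor tyrosine phosphatase (Ptpr). The calcineurin subunits Ppp3ca, Ppp3cb, Ppp3cc and Ppp3r1 were left aside. Of 8251 genes with a named probe set, 64 met this rule, and they were read by 87 probe sets. Each of the 17 genes with more than 1 probe set was represented by the one with the highest mean over the 6 arrays. One further probe set carried a member's symbol together with another gene's and was not used.

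All 6 samples are labelled as total RNA of hippocampus. No label assigns any of them to overexpressing or control mice, and the labels say nothing of strain, age, sex or pooling of animals. The samples are therefore named by the numbers in their titles, none is called transgenic or control, and no value below is a comparison of genotypes or has a replicate check. The title of sample 2 ends in e1_le2 and those of all other samples in e1_le1. The labels do not say what these endings mean. Values are deposited signal intensities. Where samples are compared, signals were expressed relative to the median of their array on a log2 scale, so that a log2 level of 0 is the array median, and ratios under 0.2 were raised to that floor. The array medians lay between 59.9 in sample 3 and 63.3 in sample 4. On this scale the highest minus the lowest of the 6 values of a gene is its range. A gene was counted as above the array median when its median over the 6 samples was over 0. No detection calls were used, so that lower signals are not shown to be above background. Signals of different genes come from different probes and are not set against each other. Of the hippocampal excitatory neuron markers, 7 of 8 measured lay above the array median (Camk2a, Neurod6, Neurod2, Gria1, Grin2a, Grin2b and Wfs1, but not Prox1), as did 7 of 7 interneuron, 4 of 5 thalamic, 1 of 4 striatal (Penk) and 1 of 5 endothelial (Cldn5) markers. The excitatory neuron markers differed between samples, with a summed signal between 2589 in sample 3 and 4408 in sample 5, median deviations of -0.35 in sample 1 and -0.42 in sample 3, and a 3.51-fold range of Camk2a. They were split in sample 3. On the log2 scale 5 of the 7 were at their lowest there, but Neurod6 and Neurod2 were at their highest (deviations of 0.41 and 0.12). Of the markers of meninges and fibroblasts, 6 of 8 lay above the median, with summed signals between 3137 in sample 5 and 7039 in sample 2 and ranges of 3.67-fold for Ptgds and 2.31-fold for Dcn. For the choroid plexus list, 2 of 5 markers (Ttr and Folr1) lay above the median, and the summed signal ran from 134 in sample 1 to 2133 in sample 6. The part of these differences in the values below was not tested.

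Protein phosphatases remove the phosphate groups that kinases add. Serine/threonine phosphatases of the PP1 and PP2A type use a small set of catalytic subunits and a large set of regulatory subunits, which hold the enzyme at its place, choose its substrates or inhibit it. In hippocampal neurons PP1 and PP2A oppose the synaptic kinases and take part in long-term depression, tyrosine phosphatases such as STEP act on glutamate receptors and on MAP kinases, and receptor tyrosine phosphatases of the LAR group act as adhesion molecules that organise synapses.

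The phosphatase genes were mostly measured above the array median, and their median range was close to that of all genes on the array. Above the median lay 46 of the 64 genes (71.9%), against 58.6% of all 8251 genes, and 43 of the 46 did so in all 6 samples. The median range of the 46 was 0.39 (1.31-fold), beside 0.40 (1.32-fold) for all 4838 genes above the median. Ranges over 1.5-fold were less frequent than among all genes, a difference that was not tested. Over 1.5-fold ranged 3 of the 46 genes (6.52%), namely Ptprcap, Ppp4c and Ptpn14, beside 23.7% of all genes. At 1.4-fold, a threshold added after the values had been seen because several members lay just under 1.5-fold, the count was 14 of 46 (30.4%), beside 36.2%. Over 2-fold ranged only Ptprcap (2.17% of the 46), beside 4.2%, and it did so by a narrow margin (2.002-fold). Without sample 5, 1 gene ranged over 1.5-fold (Ppp4c and Ptpn14 no longer did), and without sample 2 or sample 3 no gene ranged over 2-fold. In genes with a median above 1 on the log2 scale, 35 members had a median range of 0.36, the same to 2 decimals as all 3453 such genes.

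**Figure D1:**
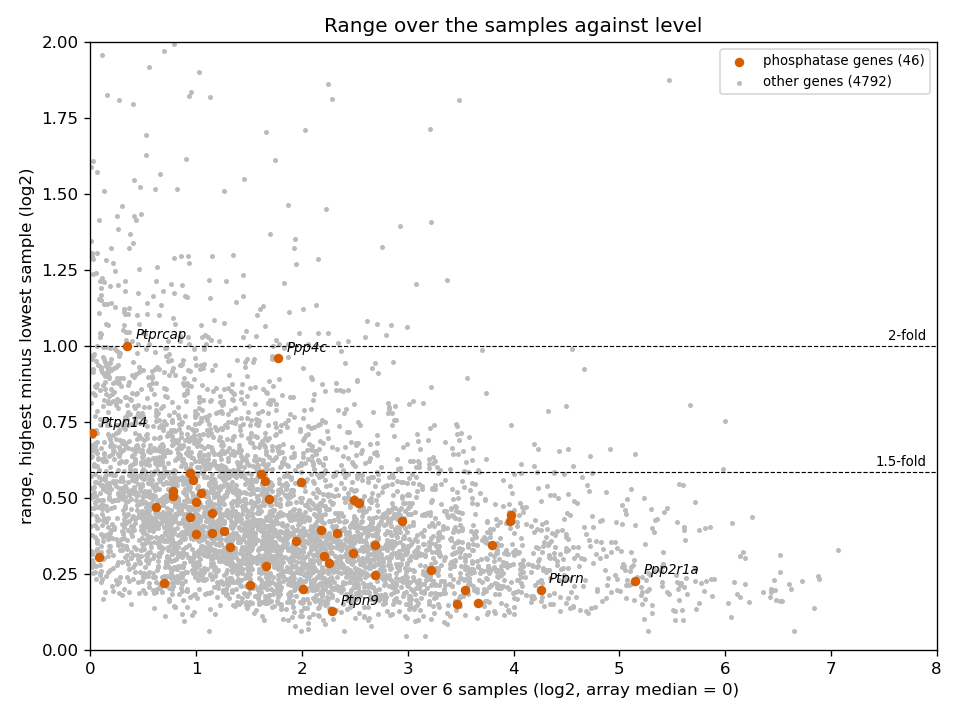
Range over the 6 samples (log2, y axis) against median level (log2 relative to the array median, x axis) for the 46 phosphatase genes above the array median (orange) and 4792 other genes (grey), of which 25 lie outside the axes. Dashed lines mark 1.5-fold and 2-fold, and 3 phosphatase genes lie above the lower line.

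The classes differed in how many genes stood above the array median. Both measured PP1 catalytic genes did, as did 4 of 4 PP1 inhibitors, 5 of 7 PP1 targeting subunits and other partners, 3 of 4 PP2A core subunits, 4 of 5 PP2A regulatory subunits, 5 of 5 genes of PP4, PP5 and PP6, and 4 of 4 metal-dependent phosphatases. Among the tyrosine phosphatases it was 14 of 19 receptor-type genes (with Ptprcap, named for its partner, among the 14) and 5 of 14 non-receptor genes. Over the genes above the array median, the median range was smallest for the PP1 catalytic genes (0.21) and the PP2A core (0.23). It was 0.28 for PP1 inhibitors, 0.35 for the metal-dependent genes, 0.36 for non-receptor and 0.42 for receptor tyrosine phosphatases, 0.39 for PP2A regulatory subunits, 0.47 for PP1 targeting subunits and 0.50 for the PP4, PP5 and PP6 genes. With so few genes in each class these medians are descriptions, and the difference between them was not tested. Without sample 1 the median of the metal-dependent genes was 0.15, and without sample 4 that of the non-receptor genes was 0.22.

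**Figure D2:**
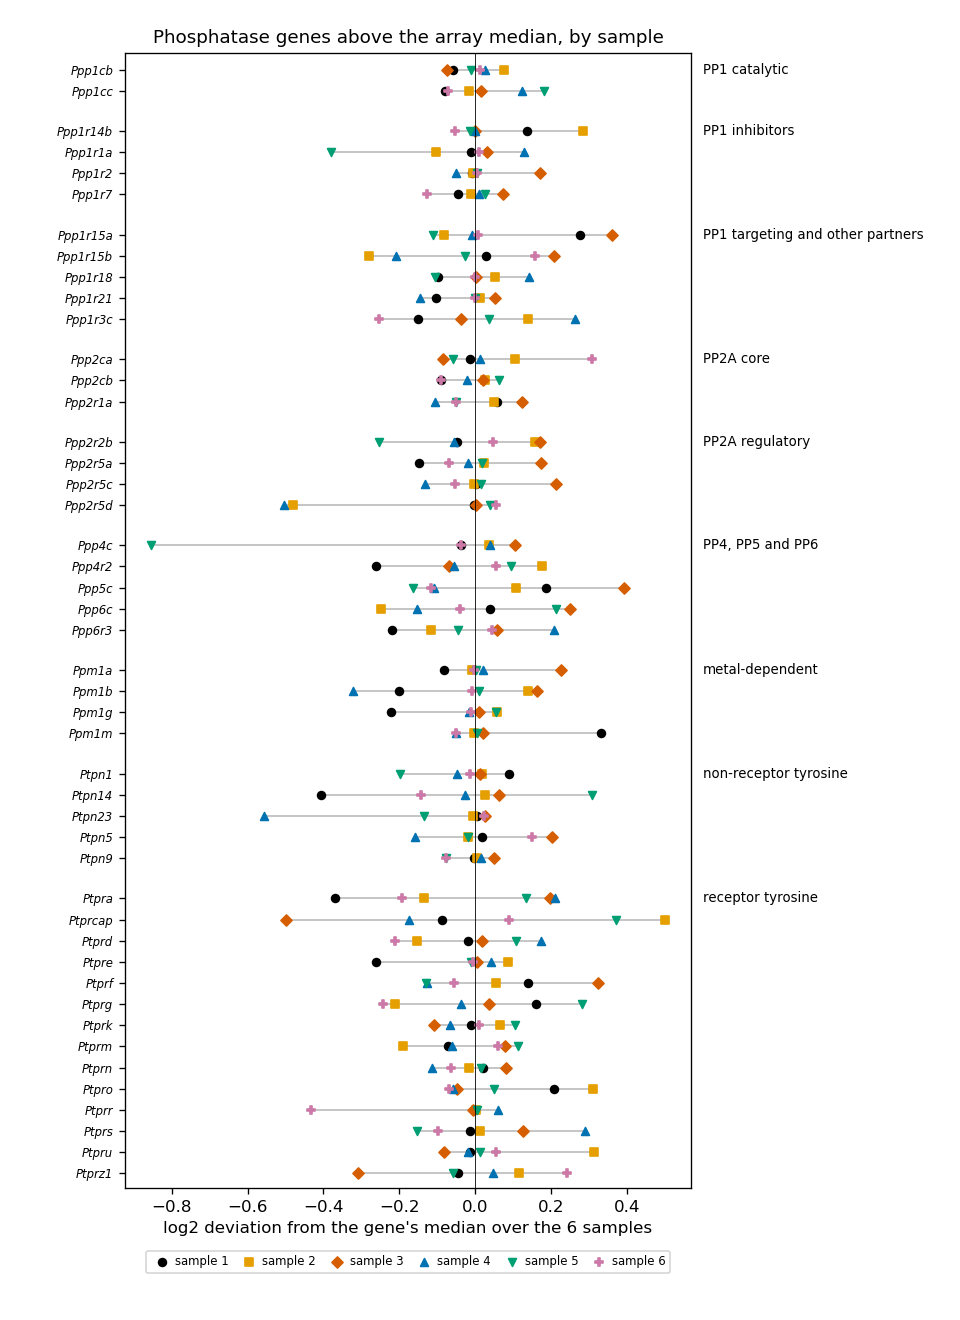
Log2 deviation of each sample from the 6-sample median of that gene (x axis) for the 46 phosphatase genes above the array median, listed by class down the page, with a symbol and colour for each sample and a grey line for the range. Ptpn9, Ppp1cb and Ppp2cb show the tightest points, and Ppp4c has a single point far to the left, sample 5.

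The stretch of DNA before the gene start was compared as a feature that the choice of members did not use. CG dinucleotides are sparse in most of the mouse genome and dense in the promoters of many widely expressed genes. In the 250 bases before the start, taken from RefSeq promoter windows (GRCm38.p6), 40 of the 46 genes above the array median had an entry, with a median of 19.5 CG dinucleotides (averaged over the windows of a gene). Of these, 36 (90.0%) had 10 or more, beside 78.9% of 3931 genes of the whole array above the median. For members not above the median, 9 of 12 with an entry (75.0%) reached 10, beside 48.8% of 2645 genes. Of all 32851 windows in the table, 92.1% held at least 1 CG and 37.8% held 10 or more. CG reads the same on both strands.

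Windows from each end of this scale are shown, with every CG in capitals and the last base next to the gene start. Ptpn1 had the most CG of any member and lay above the array median in all samples, Ppp1cb is the steady PP1 catalytic subunit, Ptpro is a gene above the array median with few CG, and Ptprc is a leukocyte gene below it.
Ptpn1, chr2:167932077-167932326, plus strand: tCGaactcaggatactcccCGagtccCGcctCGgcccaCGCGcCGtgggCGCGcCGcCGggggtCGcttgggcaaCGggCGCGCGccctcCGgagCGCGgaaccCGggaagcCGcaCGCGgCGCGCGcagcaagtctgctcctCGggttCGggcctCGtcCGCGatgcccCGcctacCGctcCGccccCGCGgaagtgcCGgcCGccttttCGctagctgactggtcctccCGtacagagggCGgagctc
Ppp1cb, chr5:32458720-32458969, plus strand: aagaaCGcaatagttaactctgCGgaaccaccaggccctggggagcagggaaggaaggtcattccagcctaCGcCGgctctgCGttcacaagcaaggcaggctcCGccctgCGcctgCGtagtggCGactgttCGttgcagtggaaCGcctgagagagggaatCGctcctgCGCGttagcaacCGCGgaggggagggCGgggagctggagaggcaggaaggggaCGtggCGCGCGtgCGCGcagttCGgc
Ptpro, chr6:137252049-137252298, plus strand: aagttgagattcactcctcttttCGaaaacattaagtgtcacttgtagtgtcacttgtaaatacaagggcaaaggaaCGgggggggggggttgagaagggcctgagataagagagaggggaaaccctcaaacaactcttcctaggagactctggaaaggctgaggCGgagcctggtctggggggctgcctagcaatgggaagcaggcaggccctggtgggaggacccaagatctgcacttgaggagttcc
Ptprc, chr1:138175306-138175555, minus strand: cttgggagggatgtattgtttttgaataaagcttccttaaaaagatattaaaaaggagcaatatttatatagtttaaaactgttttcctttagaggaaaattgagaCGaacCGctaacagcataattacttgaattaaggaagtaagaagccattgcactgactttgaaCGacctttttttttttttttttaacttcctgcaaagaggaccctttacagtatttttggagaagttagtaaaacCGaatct
The windows held 41, 24, 3 and 4 CG in that order. Another window of Ptprc, which overlaps the one printed and is not shown, held 2. Signals of all 4 genes are given with their classes below, and Ptpro shows that a gene with few CG could still read above the array median.

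**Figure D3:**
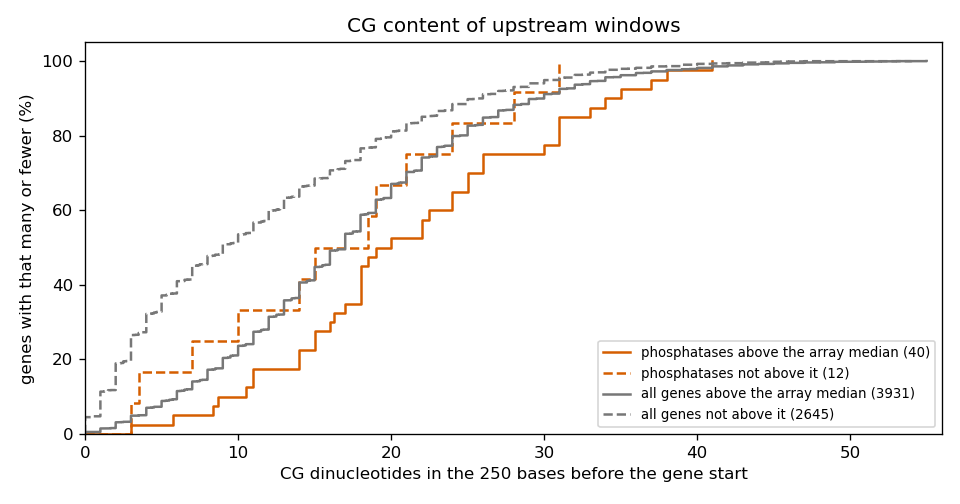
Cumulative share of genes (y axis, %) by number of CG dinucleotides in the 250 bases before the gene start (x axis) for phosphatase genes (orange) and all genes (grey), above the array median (solid) and not above it (dashed). The solid orange line lies to the right of the others over most of its course, with 90.0% of its 40 genes at 10 or more.

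The catalytic subunits of PP1 ranged little. Ppp1cb, the beta isoform, had signals of 666, 714, 628, 712, 690.5 and 699 in samples 1 to 6, a range of 0.15 (1.11-fold). Ppp1cc, the gamma isoform that is enriched at dendritic spines, had 555, 566, 566, 644, 669 and 559, a range of 0.26. Samples 4 and 5 held its highest signals, and the other 4 samples lay close together between 555 and 566. Ppp1ca had no probe set under the rule.

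The PP1 inhibitors covered several modes of control. Ppp1r1a, inhibitor-1, which blocks PP1 once protein kinase A has phosphorylated it, had 107, 98.5, 106, 119, 83.7 and 109, a range of 0.51 (1.42-fold), the widest of its class. Sample 5 was the low one, and without it the range was 0.23. Ppp1r2 (inhibitor-2), Ppp1r7 (an ancient partner of PP1 also called SDS22) and Ppp1r14b (a phosphorylation-dependent inhibitor) ranged 1.16-fold, 1.15-fold and 1.26-fold. Ppp1r1b, the dopamine-regulated inhibitor DARPP-32 of the striatum, and the spinophilin and neurabin genes Ppp1r9b and Ppp1r9a had no probe set under the rule.

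Of the PP1 targeting subunits above the array median, the widest was Ppp1r3c, which brings PP1 to glycogen and is known in brain mainly from astrocytes. Its signals were 117, 139.7, 121, 157, 134 and 109 in samples 1 to 6, a range of 0.52 (1.43-fold), highest in sample 4 and lowest in sample 6. The astrocyte marker list (6 of 6 measured markers above the array median, none at the floor) had summed signals between 4108 in sample 6, the low sample of Ppp1r3c, and 4309 in sample 3. The sum in sample 1 was nearly as low as that in sample 6 (4118). Its median deviation was highest in sample 3 (0.16) and lowest in sample 1 (-0.24). In sample 6, 3 of its 6 markers (Aldoc, S100b and Fgfr3) were lowest, but Aqp4 was highest (deviation of 0.08). Of all genes above the array median, 15.0% were lowest in sample 6. The part of the astrocyte list in the range of Ppp1r3c was not tested. In bulk tissue, fewer cells of a type and less RNA per cell cannot be told apart. Ppp1r15a and Ppp1r15b, the stress-induced and the constitutive subunit that direct PP1 to the translation factor eIF2-alpha, had ranges of 0.47 and 0.49, and both were highest in sample 3 after scaling. Ppp1r15a had 117, 89.0, 118, 96.6, 89.7 and 97.0, and its signals in samples 1 and 3 were the high ones. Ppp1r15b had 128, 101, 139, 109.7, 124 and 140.4, high in samples 3 and 6 and low in samples 2 and 4. Ppp1r21, an endosomal protein, was among the 5 steadiest of the 46 genes, with 680.2, 720.4, 722, 666, 734 and 732 (a range of 0.20, or 0.13 with quantile normalization). The actin-associated Ppp1r18 ranged 1.19-fold.

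PP2A is built from a scaffold, a catalytic and a regulatory subunit. Its 2 catalytic genes differed in range. Ppp2cb had 746, 791, 769, 789, 834 and 747, a range of 0.15 (1.11-fold), with no sample standing out. Ppp2ca had 149.6, 159, 136, 154, 146 and 187, a range of 0.39 (1.31-fold), which was 0.19 without sample 6, the high one. The scaffold gene Ppp2r1a ranged 1.17-fold, with signals from 2094 in sample 4 to 2324 in sample 1. Its relative Ppp2r1b lay below the array median in all samples, the lowest signal being 38.7 in sample 2.

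Among the PP2A regulatory subunits above the array median, Ppp2r5d, a B56 subunit with roles in neurons, was the widest. It had 123, 86.3, 118, 87.6, 127 and 128 in samples 1 to 6, a range of 0.56 (1.47-fold). Samples 2 and 4 lay close together at the low end and the other 4 samples between 118 and 128. The brain-enriched B55 subunit Ppp2r2b ranged 1.34-fold, with its lowest signal in sample 5 (825), and the B56 genes Ppp2r5a and Ppp2r5c ranged 1.25-fold and 1.27-fold. These 3 were all highest in sample 3 after scaling.

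PP4, PP5 and PP6 are relatives of PP2A, and their genes had the largest median range of the 9 classes, over genes above the array median. That median of 0.50 is the range of Ppp6c, whose 2 probe sets differ as given below. The class ranked next, PP1 targeting subunits, had 0.47. The second probe set of Ppp6c ranged more widely (0.89), and with it the class would stay first. With the mean of both probe sets (0.25) its median would fall below 0.47. Ppp4c, the catalytic subunit of PP4, which acts in DNA repair and at centrosomes, had 209, 215, 220.1, 222, 119 and 209. The signal of sample 5 was far below the other 5, which lay between 209 and 222, and the range of 0.96 (1.95-fold) was 0.14 without that sample. Only 1 probe set reads Ppp4c, so no second reading was at hand. The PP4 regulatory gene Ppp4r2 was not low in sample 5, at 129.7, and its lowest signal was in sample 1. Ppp5c, a phosphatase that works with the chaperone Hsp90, had 224, 207, 247, 184, 177 and 182, a range of 0.56 (1.47-fold). Samples 4, 5 and 6 gave its 3 lowest signals, and without sample 3, the highest, the range was 0.35. Ppp6c, the catalytic subunit of PP6, had 208, 167, 229.7, 183, 236 and 197, a range of 0.50 (1.41-fold). Its second probe set ran the other way, with 106, 151, 79.6, 103, 99.6 and 97.3, so that sample 3, the highest after scaling on the first, was lowest on the second, and sample 2, the lowest on the first, was highest. The 2 probe sets thus do not give 1 order of samples for Ppp6c, and their mean had a range of 0.25. The PP6 regulatory gene Ppp6r3 ranged 1.34-fold.

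Metal-dependent phosphatases work as single chains without the subunits of PP1 and PP2A. Ppm1a, an enzyme that acts on stress kinases and on Smad proteins, had 274, 282, 324, 297, 292 and 289.8, a range of 0.31 (1.24-fold) that was 0.11 without sample 3. Ppm1b, its closest relative, had 318, 393, 389.9, 295, 369 and 363, a range of 0.48, low in samples 1 and 4. A second, dimmer probe set of Ppm1b was also highest in sample 3 but lowest in sample 6, and the mean of the 3 probe sets had a range of 0.24. Ppm1g and Ppm1m ranged 1.21-fold and 1.31-fold. Ppm1e had no probe set under the rule.

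The non-receptor tyrosine phosphatases were the class with most genes below the array median, 9 of 14. Ptpn5, known as STEP, is a neuronal enzyme that acts on NMDA receptor subunits and on Fyn and ERK kinases. It had 245, 233, 265, 218, 239.5 and 268, a range of 0.36 (1.28-fold), lowest in sample 4, without which the range was 0.22. Ptpn9, an enzyme of secretory vesicles, was the steadiest of the 46 genes, with 305, 300.0, 303, 312, 292 and 291, a range of 0.13 (1.09-fold). Ptpn1 (PTP1B of the endoplasmic reticulum, which acts on the insulin and leptin receptors) had signals between 263 (sample 5) and 319 (sample 1), a range of 1.22-fold. Ptpn23, a partner of the endosomal sorting machinery, had 121, 117, 117, 82.7, 111 and 123, a range of 0.58, just under 1.5-fold. Sample 4 was the low one, and without it the range was 0.16. Ptpn14, a cytoskeletal phosphatase that restrains the coactivator YAP, had 47.9, 63.2, 63.3, 62.9, 79.0 and 57.6, a range of 0.71 (1.64-fold). Only 3 of these signals lay above their array median, and with the lower ones raised to it the fold was 1.25. Its range was 0.45 without sample 1 and 0.47 without sample 5.

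Ptpn11 encodes SHP2, a broadly expressed phosphatase of growth factor signalling. Its probe set gave only 3.61, 3.46, 15.6, 5.61, 3.25 and 5.07 in samples 1 to 6, all far below the array medians, so that this array gives no usable reading of it. Ptpn6 (SHP1) of leukocytes and microglia read 15.5, 13.5, 7.07, 9.15, 2.43 and 5.15, likewise below. The other members of the class below the median were Ptpn2, Ptpn12, Ptpn13, Ptpn18, Ptpn20, Ptpn21 and Ptpn22. Together with Ppp1r12c, Ppp1r17, Ppp2r1b, Ppp2r2a, Ptprb, Ptprc, Ptprj, Ptprn2 and Ptprv they make up the 18 genes not above the array median. In 17 of the 18 no sample exceeded it, and Ptprn2 did so in sample 2 (69.9). Ranges of these genes, up to 4.61-fold for Ppp1r17, rest on signals not shown to be above background and are not read further.

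Among the receptor tyrosine phosphatases, the LAR group serves as presynaptic adhesion receptors. Ptprs had 981, 975, 1031, 1220.0, 894 and 926, a range of 0.44 (1.36-fold), with sample 4 the high one and a range of 0.28 without it. Ptprd had 311, 277, 305, 359, 342 and 273, a range of 0.39 (1.31-fold). A second probe set of Ptprd read 200.4, 131, 139, 166, 152 and 129.9. Both were lowest in sample 6, but the first was highest in sample 4 and the second in sample 1. Ptprf, the founding LAR gene, had 153, 141, 166, 128, 128 and 134, a range of 0.45 (1.37-fold), and 0.27 without sample 3. The 3 genes thus had their highest scaled values in sample 4, sample 4 and sample 3, and their lowest in sample 5, sample 6 and sample 5.

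Ptprz1 and Ptprg bind contactins and, in the case of Ptprz1, the growth factors pleiotrophin and midkine. Ptprz1, made mostly by astrocytes and oligodendrocyte precursors, had 242, 265, 192, 259.9, 241 and 296, a range of 0.55 (1.47-fold). Its second bright probe set had 228, 250.4, 199, 293, 238 and 249.9 and was also lowest in sample 3, but its highest sample was 4 and not 6. The name of the first marks probes shared within a family. Without sample 3 the range was 0.30, and the mean over its 3 probe sets had a range of 0.23. The astrocyte markers were split in sample 3. There Aqp4 and Slc1a2 were at their lowest (deviations of -0.54 and -0.63). Gfap, S100b and Aldoc were at their highest (0.42, 0.29 and 0.19), and Fgfr3 lay above its own median (0.14). The part of the astrocyte markers in the pattern of Ptprz1 was not tested. Ptprg had 121, 91.2, 106, 106, 132 and 91.5, a range of 0.52 (1.44-fold), highest in sample 5 and low in samples 2 and 6.

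Ptpra, a broadly expressed receptor phosphatase that activates Src and Fyn kinases and takes part in oligodendrocyte maturation, had 149, 172, 211, 225, 213 and 169. Samples 3, 4 and 5 were the high ones and sample 1 the lowest, a range of 0.58, also just under 1.5-fold. Its log2 deviations from its own median were -0.37, -0.13, 0.20, 0.21, 0.13 and -0.19 in samples 1 to 6. The oligodendrocyte markers (7 of 7 measured above the array median, none at the floor, summed signal from 4712 in sample 1 to 6542 in sample 5) had median deviations of -0.28, -0.20, 0.13, 0.18, 0.14 and -0.06. Ptpra and the median of the list thus lay below 0 in samples 1, 2 and 6 and above 0 in samples 3, 4 and 5. Single markers did not all follow. Mbp and Mobp lay above their own medians in sample 6 (0.06 and 0.27) and below them in sample 4 (-0.04 and -0.10). Ugt8a lay above its own in sample 6 (0.11) and below it in sample 3 (-0.11). The summed signal was higher in sample 6 (6145) than in samples 3 (6087) and 4 (6065). The part of oligodendrocyte content in the Ptpra values was not tested. A second probe set of Ptpra lay at or near the floor of the scale in all samples, and the mean of both probe sets had a range of 0.34.

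Ptprn, the catalytically inactive IA-2 of dense-core vesicles, was steady at 1219, 1161, 1213, 1118, 1219.5 and 1149.6, a range of 0.20 (1.15-fold), or 0.13 in deposited signals. Ptprr and Ptpre ranged 1.41-fold and 1.27-fold. Ptpro had signals between 116 and 152 (1.30-fold), and the homophilic adhesion receptors Ptprk, Ptprm and Ptpru ranged 1.16-fold, 1.24-fold and 1.31-fold. Ptprm lay close to the array median, with signals between 56.8 and 72.2.

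The widest of the 46 genes above the array median was Ptprcap, which is no phosphatase but a lymphocyte protein that associates with CD45. It had 75.3, 111, 54.1, 71.5, 104 and 85.2, a range of 1.00 (2.00-fold), highest in sample 2 and lowest in sample 3. Sample 3 lay under its array median, and with that value raised to the median the fold was 1.81. Ptprc, which encodes CD45 itself, read 4.54, 13.1, 2.78, 5.21, 3.22 and 5.73 on its brightest probe set, below the array median in all samples. Of the microglia and leukocyte markers, 6 of 8 measured lay above the array median (Aif1 and Itgam did not), none was at the floor in all samples, and their summed signal lay between 1843 in sample 1 and 1975 in sample 6. That list had median deviations between -0.05 and 0.07, with the lowest in sample 1 and the highest in sample 3. Its part in the range of Ptprcap was not tested.

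Sample 3 gave the highest scaled value for 19 of the 46 genes (41.3%), beside 31.1% of all genes above the array median. In deposited signals, without division by the array median, it was highest for 7 of the 46 (15.2%), beside 19.1% of all genes. Sample 3 had the lowest array median, so that division raises it most. Its 3' to 5' ratios of the pyruvate carboxylase (3.56) and transferrin receptor (3.47) controls were the highest of the 6 arrays, which range from 1.57 to 2.61 and from 2.54 to 3.02 in the other samples. Those of the beta-actin and Gapdh controls were highest in sample 1 instead (1.27 and 0.86), with 1.21 and 0.82 in sample 3. The part of scaling and RNA quality in single genes was not tested. Sample 1 was highest for 2 of the 46 genes (4.35%), beside 17.3% of all genes, and in deposited signals for 3 (6.52%), beside 21.5%.

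**Figure D4:**
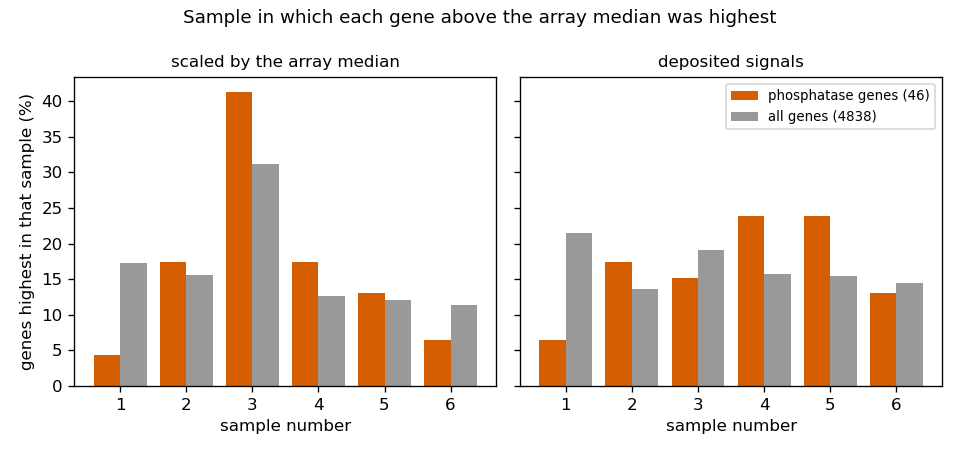
Share of genes above the array median (y axis, %) whose highest value fell in each sample (x axis), for the 46 phosphatase genes (orange) and all 4838 genes (grey), after scaling by the array median (left) and in deposited signals (right). The peak at sample 3 in the left panel, 41.3% and 31.1%, is absent from the right panel, where it is 15.2% and 19.1%.

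In 9 of the 46 genes (19.6%) 1 sample lay apart from the other 5 by a gap test on the 6 log2 values, beside 5.89% of all 4838 genes above the array median. Low samples were sample 5 for Ppp4c, sample 6 for Ptprr (a phosphatase of ERK kinases), sample 4 for Ptpn23 and sample 1 for Ptpre and Ppm1g. High samples were sample 1 for Ppm1m, sample 2 for Ptpru and sample 3 for Ppm1a and Ppp1r2. With quantile normalization the count was 5 (10.9%), beside 6.24% of all genes, and in deposited signals it was 6 (13.04%), beside 6.22%.

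**Figure D5:**
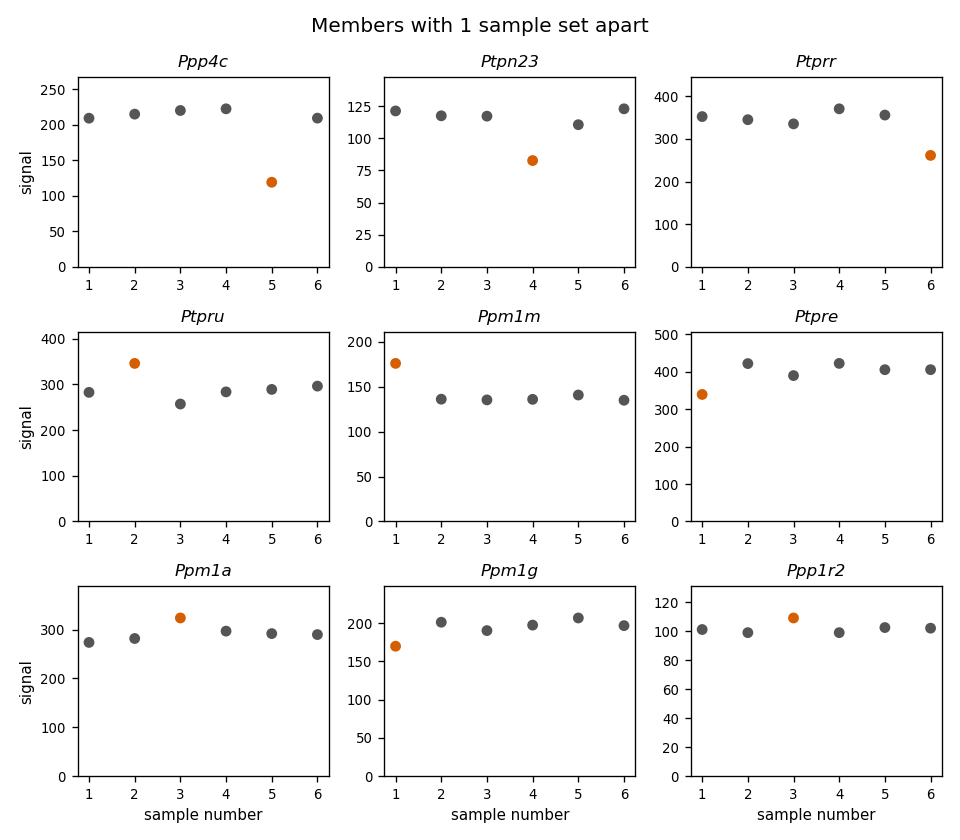
Deposited signal (y axis, linear from 0) in samples 1 to 6 (x axis) for the 9 phosphatase genes with 1 sample set apart, which is orange in each panel. The drop of Ppp4c in sample 5, at 119 beside 209 to 222 in the other samples, is the largest of the 9.

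Partners of PP1 and PP2A whose symbols fall outside the rule were taken from a separate list. It also held Nrgn (neurogranin), which is not a subunit of either. Nrgn lay above the array median with a range of 0.58, and the counts below include it. Of 21 genes 13 were measured and 11 lay above the array median, with a median range of 0.40, and 2 ranged over 1.5-fold. Of all genes, 58.6% lay above the array median. Of those, 23.7% ranged over 1.5-fold, and their median range was 0.40. Set, an inhibitor of PP2A, was highest in sample 1 (393) and lowest in sample 5 (265), a range of 1.49-fold. Igbp1, which holds free PP2A catalytic subunits, had signals between 84.6 (sample 5) and 123 (sample 3), a range of 1.53-fold. Strn4, a striatin that is itself a PP2A regulatory subunit, had the widest range, 3.51-fold. It read 24.4 in sample 2 and between 67.0 and 88.0 in the other samples, and with that value raised to the array median the fold was 1.39. Ptpa, the PP2A activator, ranged 1.37-fold, and Ensa and Arpp19, which inhibit PP2A in mitosis, 1.17-fold and 1.32-fold.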

How the data were processed

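Hippocampal RNA of 6 mouse samples was measured on oligonucleotide arrays with 12488 probe sets, 66 of them controls. The authors deposited a linear signal intensity for each probe set and array. The labels and the file state no scanner, software or scaling step. The mean between the 2nd and 98th percentile was 150.0 on each array. Gene names came from the platform annotation (10833 with 1 gene symbol, 396 with several, 1193 with none). All 64 members matched the RefSeq gene table (GRCm38.p6) by gene identifier, with 0 symbols changed. Signals were divided by the median of their array without control probe sets, ratios below 0.2 were raised to 0.2, and log2 was taken. No test between groups was run, since no label gives groups. The gap test was run on each gene by itself. It flags a gap that takes up more than 0.625 of the range, Dixon's critical value for 6 values. Calculations used Python 3.11.15, numpy 2.4.6 and pandas 2.3.3, and the range and gap calculations were tested on simulated data. The members, the classes, the marker lists and the naming rule were chosen with earlier results of these data known. Signals in every sample are given for the catalytic subunits, the 12 widest, the 5 steadiest, the widest of each class and genes known from neurons or glia, and for Ppp1r15a and Ppp1r15b, chosen after their values were seen. Alternatives covered scaling, floor, filter, probe set choice and each sample left out.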

Additional observations from a re-analysis of the deposited data

Results flagged for a closer look

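In 9 of the 46 phosphatase genes above the array median (19.6%) 1 sample lay apart, that is, the gap between the highest or lowest sample and its neighbour took up an unusually large share of the whole range of the 6 log2 values. Chance flags about 5% of such sets, and 5.89% of all 4838 genes above the array median were so flagged. With quantile normalization the shares were 10.9% of the phosphatase genes and 6.24% of all genes. The 6 arrays are not replicates of a group. Ppp4c was low in sample 5 (119, and 209 to 222 in the other samples, gap share 0.853). Ptprr, a phosphatase of ERK kinases, was low in sample 6 (261.5, and 335 to 371 elsewhere, 0.869), and Ptpn23 in sample 4 (82.7, and 110.5 to 123 elsewhere, 0.727). Ptpre was low in sample 1 (339, and 389 to 422 elsewhere, 0.719), as was Ppm1g (169.8, and 190.2 to 207 elsewhere, 0.739). Ppm1m was high in sample 1 (176, and 135 to 141 elsewhere, 0.81). Ptpru was high in sample 2 (346, and 257 to 296 elsewhere, 0.656). Sample 3 was the high one for Ppm1a (324, and 274 to 297 elsewhere, 0.661) and for Ppp1r2 (109, and 98.9 to 102 elsewhere, 0.75). Each of samples 1 to 6 was the one set apart for at least 1 of these genes. Only Ppp4c and Ptpn23 had a range near or over 1.5-fold, and the gap of Ppp1r2 sits within a range of 1.16-fold.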

How the results depend on the processing

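The counts depend on the settings as follows. The number of genes above the array median stayed between 40 and 46 under no scaling, quantile normalization, no floor, low values raised to the array median, the mean of probe sets and the demand that all samples lie above it, and between 45 and 46 with each sample left out in turn. The median range stayed between 0.34 and 0.41 under all alternatives. The count over 1.5-fold, 3 as reported, was 5 without scaling, 6 with quantile normalization, 1 where all samples had to lie above the array median, 1 for genes over 2 times the array median, 12 with no filter, 14 at a threshold of 1.4-fold, and 1 to 3 with each sample left out in turn. The count over 2-fold, 1 as reported, was 0 with quantile normalization, with low values raised to the array median, where all samples had to lie above it and for genes over 2 times the array median, 9 with no filter, and 0 to 1 with each sample left out in turn. These range counts cover the genes each setting keeps, all 64 with no filter. Shares of all genes stand beside only the main counts and that at 1.4-fold, given above. The other range counts are not read as more or fewer than among all genes. The 9 genes with a sample set apart became 5 with quantile normalization (10.9%, beside 6.24% of all genes) and 6 without scaling (13.04%, beside 6.22%). Of 490 further values for single genes and classes, 31 moved by over 1.5 times, 17 of them on leaving out a sample. The thresholds of 1.4-fold and of 2 times the array median and the settings for samples set apart were chosen after seeing the data. No paired analysis was possible because no label assigns the samples to groups. The number of arrays, with no detection calls, limits the precision, most of all for dim genes.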

Other observations

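Phosphatases outside the Ppp, Ppm1, Ptpn and Ptpr symbols were read from a separate list of 43 genes, of which 20 were measured and 14 lay above the array median, with a median range of 0.46. Over 1.5-fold ranged 4 of the 14, and none over 2-fold. Of all genes, 58.6% lay above the array median. Of those, 23.7% ranged over 1.5-fold and 4.2% over 2-fold, with a median range of 0.40. Dusp2, a nuclear MAP kinase phosphatase that is induced by activity, ranged most, from 73.6 in sample 4 to 139 in sample 1 (1.91-fold). After scaling, Dusp1, its stress-induced relative, and Dusp8 were also highest in sample 1 and lowest in sample 4, at 1.33-fold and 1.43-fold. In deposited signals Dusp1 was lowest in sample 3 (335.5) with sample 4 close (336.9). Dusp6, the cytosolic ERK phosphatase, was instead lowest in sample 1 (290.3) and had its highest scaled value in sample 2. Eya3 ranged 1.88-fold (1.54-fold once its low values were raised to the array median), Ctdsp2 1.60-fold and Ptp4a3 1.58-fold.

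Among the ligands, partners and substrates of tyrosine phosphatases, 17 of 24 listed genes were measured and 11 lay above the array median, with a median range of 0.59, and 6 ranged over 1.5-fold. The same shares of all genes stand beside these counts, 58.6% above the array median and 23.7% of those over 1.5-fold. The median range of all genes above the array median was 0.40, and the difference was not tested. Cntn1, the contactin bound by Ptprz1, had a range of 0.26 and was lowest in sample 3 (1055), the sample in which Ptprz1 was lowest. Sample 5 was close, with log2 deviations of -0.16 in sample 3 and -0.14 in sample 5. Of all genes above the array median, 11.1% were lowest in sample 3, and a link between Cntn1 and Ptprz1 was not tested. Mdk, midkine, ranged 1.53-fold and was highest in sample 4 (129) and lowest in sample 5 (83.6). In sample 3 it lay above its own median (deviation of 0.13). Ntrk3, a neurotrophin receptor that also binds Ptprs, had signals between 63.0 (sample 6) and 121 (sample 5), a range of 1.91-fold. Src ranged 2.10-fold (1.44-fold once low values were so raised), with its lowest signal in sample 3 (41.1), and Fyn ranged 1.31-fold. Gpc4 ranged 1.84-fold (1.34-fold once low values were so raised), and Ppfia4 ranged 1.51-fold. Src and Gpc4 thus passed 1.5-fold only through values under the array median. Gab1, a docking protein for SHP2, had signals between 103 (sample 1) and 177 (sample 4), a range of 1.70-fold.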
